A study of Mus musculus with 11 samples.

Results

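Classical major histocompatibility complex (MHC) class I molecules were followed in mouse beta cells through the genes of their chains, H2-K1, H2-D1 and B2m. Their rows were taken by Ensembl identifier from gene-level RNA-seq files that hold 55487 genes, and all 3 were found and were among the 16252 genes that passed the filter on low counts. Pancreatic islets came from C57BL/6 mice, which the methods describe as 12-week-old males of the C57BL/6JRj strain. Islets were cultured without interferon gamma (IFNγ) for the control libraries (n = 4), or with 50 pg/mL of IFNγ for 20 h. Beta cells were then sorted by flow cytometry as EpCam+, CD24low and CD71+ cells lacking lineage markers, and the IFNγ-exposed cells were separated by surface PD-L1 into PD-L1high (n = 4) and PD-L1low (n = 3) cells. PD-L1high and PD-L1low cells therefore shared dose and time and differed by the gate, and replicate 1 has no PD-L1low library. Control cells were not selected on PD-L1, and both populations were compared with the same control libraries. Library totals ran from 10422018 to 15810769 expected counts.

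A classical class I molecule is made of a polymorphic heavy chain, which holds the peptide, and an invariant light chain, β2-microglobulin. Heavy chains that fail to pair with the light chain and a peptide are mostly retained in the cell, and the assembled molecule presents peptides from inside the cell to CD8+ T cells. IFNγ induces the factor IRF1 and the class I transactivator NLRC5, and enhanced class I display on beta cells is a known feature of autoimmune diabetes. C57BL/6 mice carry H2-K and H2-D as their classical heavy chains.

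H2-K1 (ENSMUSG00000061232) encodes the H2-K heavy chain and lies on the minus strand at chr17:33996017-34000347 of GRCm38. H2-D1 (ENSMUSG00000073411) encodes the H2-D heavy chain and lies on the plus strand at chr17:35262730-35267499, inside the same MHC region. B2m (ENSMUSG00000060802) encodes the light chain and lies outside the MHC, on the plus strand at chr2:122147686-122153083, where its span overlaps Patl2 on the opposite strand. The libraries were made with strand information, and Patl2 was not among the genes that passed the filter. The longest coding transcripts have 8, 8 and 4 exons and coding sequences of 1107, 1086 and 357 bases for H2-K1, H2-D1 and B2m. The 2 heavy chain coding sequences were identical at 988 of 1074 aligned bases (92.0%).

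This likeness bears on how reads can be assigned between the heavy chains. Of all 75-base windows of the H2-K1 transcript, 1.55% occurred unchanged in a transcript of another gene. The share was 6.90% for H2-D1, mostly with H2-Q1, and 0 of 786 windows for B2m. RSEM, which divides reads that match several genes, gave counts that were not whole in 2 of 11 libraries for H2-K1, in 8 for H2-D1 and in none for B2m. Most windows of both heavy chains thus occurred in 1 gene, and a fit with all heavy chain counts summed is given beside the results.

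The sequence before the start of transcription is shown because class I promoters are known to carry a compact set of elements. All 3 genes were higher in PD-L1high than in control cells, B2m by more than the heavy chains. The part of these elements in those changes was not tested. Sequences are from RefSeq on GRCm38.p6 and are written 5′ to 3′ along the gene, and all 3 genes were matched. For H2-D1 the whole window lies in the first exon of a longer GENCODE transcript, so that only short elements of it are shown. The upstream element of each gene combines a match to the kappaB element, the binding site of NF-kappaB factors, with a match to an interferon-response sequence, the kind of site bound by IRF factors. Capitals mark the matches. The positions are chr17:34000429-34000458 on the minus strand for H2-K1, chr17:35262923-35262952 for H2-D1 and chr2:122147548-122147570 for B2m.
H2-K1: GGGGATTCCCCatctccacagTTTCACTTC
H2-D1: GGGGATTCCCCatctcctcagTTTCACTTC
B2m: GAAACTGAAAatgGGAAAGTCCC

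The heavy chain elements were identical at 29 of 30 bases and read kappaB first, and their interferon-response match (TTTCACTTC) is on the opposite strand. In B2m the interferon-response letters come first, on the strand shown, and the kappaB match is on the opposite strand. A downstream element followed, in which capitals mark TGACG, the core letters of sites bound by CREB and ATF factors, and ATTGG, the inverted CCAAT box bound by NF-Y. It lies at chr17:34000359-34000388 on the minus strand for H2-K1, at chr17:35262993-35263022 for H2-D1 and at chr2:122147609-122147638 for B2m.
H2-K1: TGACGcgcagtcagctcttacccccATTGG
H2-D1: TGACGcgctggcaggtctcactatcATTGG
B2m: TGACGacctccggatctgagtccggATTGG

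The start of ATTGG lay 25 bases after the start of TGACG in all 3 genes. Between these letters the light chain differed from the heavy chains, and over the 30 bases the B2m element matched H2-K1 at 13 and H2-D1 at 12 positions, while the heavy chains matched each other at 23. The wider windows are given for H2-K1 and B2m, the heavy and the light chain gene whose upstream sequence holds no exon, from chr17:34000348-34000597 on the minus strand and chr2:122147437-122147685 on the plus strand, with the same matches in capitals.
H2-K1: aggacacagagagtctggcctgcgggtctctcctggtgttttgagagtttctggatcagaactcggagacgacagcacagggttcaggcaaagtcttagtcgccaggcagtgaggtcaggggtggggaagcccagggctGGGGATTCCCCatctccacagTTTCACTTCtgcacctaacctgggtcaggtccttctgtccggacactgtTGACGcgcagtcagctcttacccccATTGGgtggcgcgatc
B2m: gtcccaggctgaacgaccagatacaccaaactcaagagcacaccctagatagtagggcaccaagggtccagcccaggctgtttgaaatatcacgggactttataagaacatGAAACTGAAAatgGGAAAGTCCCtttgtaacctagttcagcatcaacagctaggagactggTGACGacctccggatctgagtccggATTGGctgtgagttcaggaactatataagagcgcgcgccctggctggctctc

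The letters were searched on both strands in the 250 bases before each of 32851 RefSeq starts, and they were chosen with these sequences in view. The kappaB element was present in 3.90% of these windows, TGACG in 17.8% and ATTGG in 33.9%. The interferon-response letters were searched as GAANNGAAA, found in 6.31% of windows and in both heavy chain genes, and with a further A after the first GAA, found in 2.98% of windows and in B2m. A kappaB match, an interferon-response match, TGACG and ATTGG stood together in 15 windows (0.0457%) of 14 genes. Besides the 3 chains these genes included the class I heavy chain genes H2-Q4, H2-Q7, H2-T22, H2-M2 and H2-M3. Of the 14, 11 passed the filter on counts. Called higher in PD-L1high than in control cells were 6 of those, beside 0.941% of all 16252 tested genes. They were the 3 chains, with whose sequences in view the letters were chosen, and the heavy chain genes H2-Q4, H2-Q7 and H2-T22. Ebp, H2-M3, Oasl1, Pxmp4 and Rab28 were not called, so that no tested gene of the 14 outside the class I chains was called. These genes were listed after their values were seen, and a match of letters is a description of the sequence only.

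Markers were checked against the sorted cell type. The summed level of 8 beta cell markers, among them Ins1 and Ins2, ran from 60909 to 93673 CPM (counts scaled to a common library size) in control, from 71934 to 77314 in PD-L1low and from 62129 to 90412 in PD-L1high libraries. The summed level of 14 leukocyte markers was 5.37 to 6.98, 3.89 to 6.14 and 7.79 to 19.2 CPM in the same order. Leukocytes carry abundant class I, and 8 of their 14 markers, including Tyrobp and Cd3e, were at 0 in all 11 libraries. Cd74, the class II invariant chain, which IFNγ also induces in other cells, averaged 0.812, 0.884 and 6.88 CPM and was the 1 of 4 tested leukocyte markers called higher in PD-L1high than in control cells (adjusted p = 0.0172, up to 0.221 when single libraries were left out). The summed endothelial markers stayed between 1.45 and 4.28 CPM with Cdh5 at 0, and exocrine and duct markers, nearly all Spp1, ran from 105 to 467 CPM with Prss2 and Amy2b at 0. The summed markers of other islet endocrine cells were 476 to 1781, 368 to 385 and 789 to 2066 CPM, lowest in PD-L1low libraries. Of the 7 tested, 4 were called higher in PD-L1high than in PD-L1low cells, 2 (Ppy and Pyy) were called lower in PD-L1low than in control cells, and 1 (Ppy) was called higher in PD-L1high than in control cells (log2 fold change 0.67, adjusted p = 0.00183). Over all 16252 tested genes, the calls in the same order were 0.64% higher, 3 genes lower and 0.941% higher. Without the replicate block, the calls of Gcg (adjusted p = 0.434) and Sst (adjusted p = 0.781) in PD-L1high against PD-L1low and of Ppy in PD-L1high against control (adjusted p = 0.913) were lost. The part of these cells in the class I levels was not tested. The share of mitochondrial counts ran from 5.54% to 13.3%, with the highest value in control replicate 1. Cd274, which encodes the gated protein PD-L1, averaged 20.4, 38.1 and 218 CPM in control, PD-L1low and PD-L1high cells. In edgeR it was called higher in PD-L1low than in control cells (log2 fold change 0.94, adjusted p = 0.0394), a call lost in 12 of 23 alternatives. In such bulk libraries fewer cells of a type and less RNA per cell cannot be told apart.

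The light chain gene B2m showed the widest range of the 3 genes. Its level, in CPM normalized between libraries by the TMM method, was 187, 114, 91.2 and 106 in control replicates 1 to 4. It was 132, 196 and 170 in PD-L1low replicates 2 to 4, and 1041, 739, 986 and 930 in PD-L1high replicates 1 to 4. The lowest PD-L1high library was several times above the highest library of either other group, whereas control and PD-L1low libraries overlapped through control replicate 1 (every PD-L1low library was above every control library for 1.28% of tested genes). The group means were 125 ± 42.7 (SD, n = 4), 166 ± 32.4 (SD, n = 3) and 924 ± 131 CPM (SD, n = 4). B2m was 7.58-fold higher in PD-L1high than in control cells (log2 fold change 2.92, SE 0.15, 95% interval 2.59 to 3.25, adjusted p = 1.96e-08), and 5.09-fold higher in PD-L1high than in PD-L1low cells (log2 fold change 2.35, SE 0.17, adjusted p = 1.58e-06).

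H2-K1 was the most abundant heavy chain gene, and it changed less. Its level was 257, 366, 308 and 305 CPM in control replicates 1 to 4. In PD-L1low replicates 2 to 4 it was 340, 416 and 303 CPM, and in PD-L1high replicates 1 to 4 it was 779, 761, 834 and 755 CPM. The PD-L1high libraries lay close together, with a coefficient of variation of 4.63% against 14.5% in control and 16.3% in PD-L1low libraries, and none overlapped another group. The means were 309 ± 44.8, 353 ± 57.7 and 782 ± 36.2 CPM (SD, n = 4, 3 and 4). H2-K1 was 2.54-fold higher in PD-L1high than in control cells (log2 fold change 1.35, SE 0.12, 95% interval 1.10 to 1.60, adjusted p = 4.61e-06) and 2.30-fold higher than in PD-L1low cells (log2 fold change 1.20, SE 0.13, adjusted p = 0.000139).

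H2-D1 followed the same order of groups at a lower level. It measured 130, 172, 159 and 150.2 CPM in control replicates 1 to 4. The values were 176, 190 and 143 CPM in PD-L1low replicates 2 to 4 and 371, 359, 412 and 363 CPM in PD-L1high replicates 1 to 4. Every PD-L1high library was again above every library of the other groups, while PD-L1low replicate 4 fell among the control libraries. The means were 153 ± 17.5, 169 ± 24.1 and 376 ± 24.4 CPM (SD, n = 4, 3 and 4). H2-D1 was 2.47-fold higher in PD-L1high than in control cells (log2 fold change 1.31, SE 0.11, 95% interval 1.08 to 1.53, adjusted p = 2.06e-06) and 2.30-fold higher than in PD-L1low cells (log2 fold change 1.20, SE 0.12, adjusted p = 5.48e-05). With the counts of 25 class I heavy chain genes summed before the fit, the log2 fold changes were 1.36 against control and 1.22 against PD-L1low cells.

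**Figure D1:**
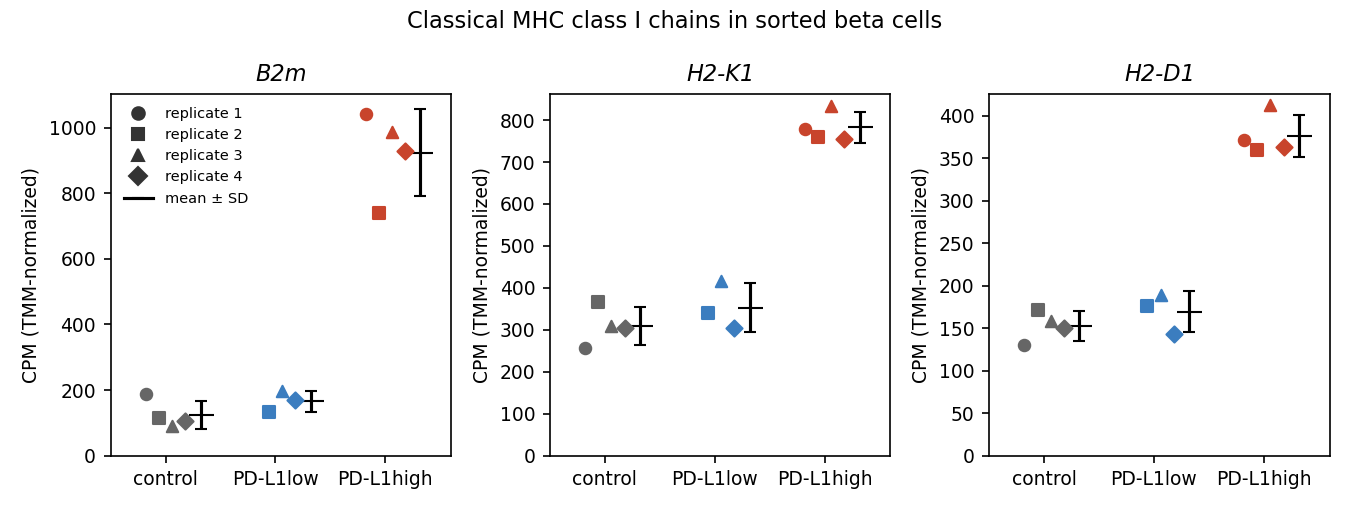
Level of B2m, H2-K1 and H2-D1 in CPM (TMM-normalized, vertical axes from 0, a scale for each gene) in control, PD-L1low and PD-L1high libraries. Each point is 1 library, its shape gives the replicate number, and the black marks give the mean ± SD (n = 4, 3 and 4). All PD-L1high points lie above all other points for each gene, and the control and PD-L1low points overlap.

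All 3 genes were thus called higher in PD-L1high than in control cells, where 0.941% of 16252 tested genes were called higher, and all 3 were called higher in PD-L1high than in PD-L1low cells, where 0.64% were. By p value they ranked 9 (B2m), 33 (H2-D1) and 35 (H2-K1) of all tested genes in the comparison with control. Complete separation of the libraries was less rare, since 2.68% of tested genes had every PD-L1high library above every control library and 4.41% had every PD-L1high above every PD-L1low library. Within replicates, B2m was 5.56-, 6.49-, 10.8- and 8.73-fold higher in PD-L1high than in control cells in replicates 1 to 4. H2-K1 was 3.03-, 2.08-, 2.71- and 2.47-fold higher in the same order. The smallest within-replicate change of B2m thus exceeded the largest of H2-K1.

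In PD-L1low cells none of the 3 genes was called against control, where 0.0615% of tested genes were called higher. The log2 fold change of H2-K1 was 0.15 (95% interval -0.13 to 0.42, unadjusted p = 0.273) and that of H2-D1 was 0.11 (95% interval -0.14 to 0.35, unadjusted p = 0.381), and both had an adjusted p of 1.00. An increase of either heavy chain by more than 1.34-fold lay outside its interval. For B2m the log2 fold change was 0.58 (95% interval 0.23 to 0.93), with an unadjusted p of 0.00319 and an adjusted p of 0.978. Over the alternatives its unadjusted p ran from 4.22e-05 with no filter on low counts to 0.0745 without the replicate block (log2 fold change 0.41). Without replicate 3 the unadjusted edgeR p was 0.0733 (log2 fold change 0.36). B2m was 1.16-, 2.15- and 1.60-fold higher in PD-L1low than in control cells within replicates 2 to 4, and 10 of 12 pairs of a PD-L1low and a control library had the higher value in PD-L1low cells. It passed the threshold in a single alternative, the fit with no filter on low counts (log2 fold change 0.59, adjusted p = 0.0160), and the adjusted p ranged from 0.0160 to 1.00 over 23 alternatives.

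The balance of heavy to light chain was compared in TPM, a unit of transcript abundance that divides by the effective length of each gene and so allows genes to be set side by side. In 3 of 4 control libraries and in all PD-L1low libraries the order was H2-K1, B2m, H2-D1. In control replicate 1, H2-K1 at 213 and B2m at 219 TPM were nearly equal. In every PD-L1high library B2m came first, with means of 1475 ± 279 TPM for B2m, 884 ± 94.2 for H2-K1 and 211 ± 26.5 for H2-D1 (SD, n = 4). Control means were 178 ± 30.8, 329 ± 79.3 and 79.6 ± 17.02 TPM. Among all genes of a library, B2m stood at ranks 157 to 400 in control and at ranks 39 to 50 in PD-L1high cells, while H2-K1 stood at ranks 123 to 161 and 54 to 64, and H2-D1 at 714 to 876 and 246 to 305.

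**Figure D2:**
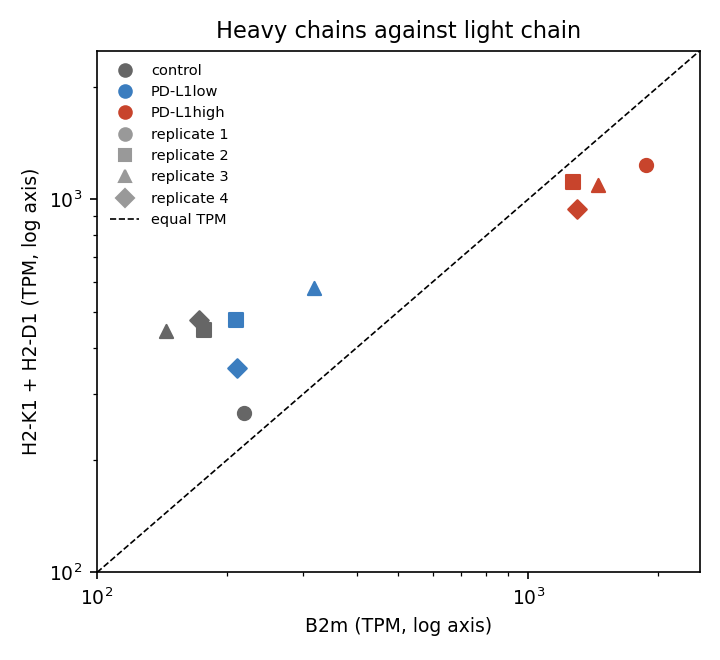
Summed TPM of H2-K1 and H2-D1 (vertical log axis) against TPM of B2m (horizontal log axis), 1 point per library, coloured by group and shaped by replicate number. The dashed line marks equal TPM. The 7 control and PD-L1low libraries lie above the line and the 4 PD-L1high libraries below it.

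The ratio of heavy chain TPM (H2-K1 plus H2-D1) to B2m TPM was 1.22, 2.52, 3.07 and 2.76 in control replicates 1 to 4. It was 2.26, 1.82 and 1.68 in PD-L1low replicates 2 to 4, and 0.658, 0.871, 0.752 and 0.725 in PD-L1high replicates 1 to 4. By TPM, transcripts of these 2 heavy chains therefore exceeded those of B2m in each control and PD-L1low library and were fewer in each PD-L1high library. By expected counts, not divided by length, the ratio was 1.11, 1.52, 1.26 and 1.20 in PD-L1high replicates 1 to 4. The order within PD-L1high libraries thus depended on the division by effective length, while the log2 difference from control by expected counts was -1.60. The mean TPM ratio was 2.39 ± 0.812, 1.92 ± 0.303 and 0.752 ± 0.0889 (SD, n = 4, 3 and 4). On the log2 scale the PD-L1high ratio was lower than that of control by 1.59 (a difference of -1.59, to 0.331 of control, exact two-sided permutation test, p = 0.0286), which is the smallest p that 4 against 4 libraries allow. Adjusted over the 6 ratio tests the p was 0.171. With smallest possible p values of 0.0286 and 0.0571 in these tests, no data could have brought an adjusted p under 0.05. Against PD-L1low cells the difference was -1.35 (exact p = 0.0571, the smallest for 4 against 3 libraries, adjusted p = 0.171). With either heavy chain alone the difference from control was -1.59 (H2-K1) and -1.62 (H2-D1), and with 25 class I heavy chain genes summed it was -1.62. With all 25 summed, the ratio itself was 0.866, 1.15, 0.977 and 0.923 in PD-L1high replicates 1 to 4 (mean 0.979 ± 0.122, SD, n = 4), so that heavy chain and B2m transcripts were near equal, with heavy chains ahead in replicate 2.

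Control replicate 1 stood apart from the other control libraries in this balance. It had the highest B2m CPM and the lowest H2-K1 and H2-D1 CPM of its group, and also the highest mitochondrial share of all libraries, whose part in the ratio was not tested. Without it the PD-L1high ratio differed from control by -1.89 on the log2 scale. For PD-L1low cells the difference from control was -0.25 with all libraries (exact permutation p = 0.571, adjusted p = 0.914) and -0.54 without control replicate 1 (exact permutation p = 0.1, the smallest for 3 against 3). It was -0.20 without control replicate 2, -0.10 without control replicate 3, -0.15 without control replicate 4 and -0.16 without PD-L1low replicate 4, so that its size rested on single libraries. In each of replicates 2 to 4 the ratio was lower in PD-L1low than in control cells.

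**Figure D3:**
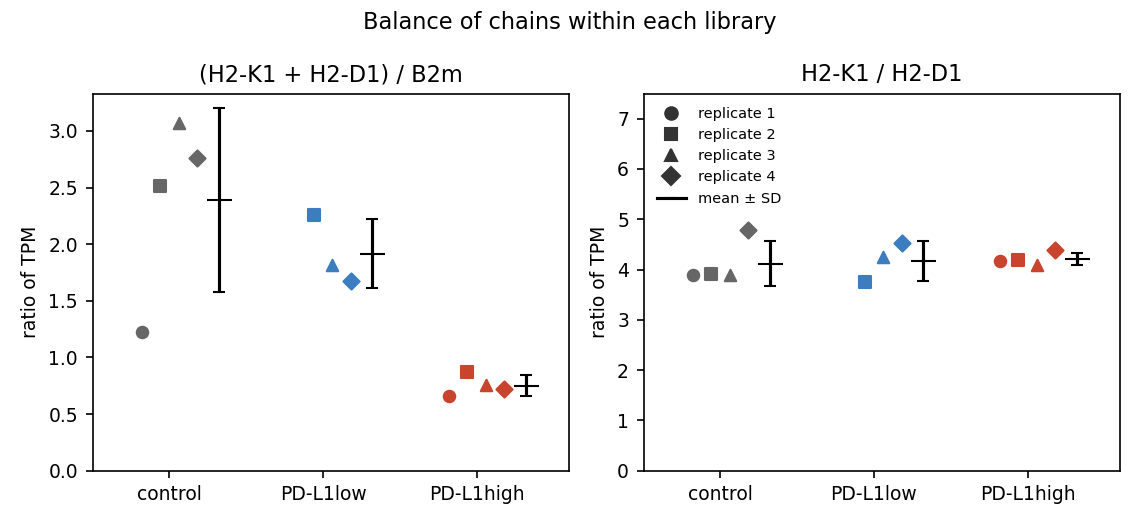
Ratio of heavy chain to B2m TPM (left) and of H2-K1 to H2-D1 TPM (right) in each library, both axes from 0, with point shapes for replicate numbers and black marks for the mean ± SD (n = 4, 3 and 4). PD-L1high libraries lie at 0.658 to 0.871 on the left, below all others, and the groups overlap on the right.

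The proportion of the 2 heavy chains differed little between groups. The ratio of H2-K1 to H2-D1 TPM was 3.89, 3.91, 3.89 and 4.79 in control replicates 1 to 4. It was 3.75, 4.24 and 4.53 in PD-L1low replicates 2 to 4, and 4.17, 4.20, 4.09 and 4.38 in PD-L1high replicates 1 to 4. These values overlapped, and the log2 differences were 0.04 for PD-L1high against control, 0.02 for PD-L1low against control and 0.02 for PD-L1high against PD-L1low (exact permutation p = 0.743, 0.914 and 0.857, adjusted p = 0.914 for each). Without control replicate 4 the difference of PD-L1high from control was 0.11 (exact permutation p = 0.0571, the smallest for 4 against 3), and all 4 PD-L1high libraries were then above the remaining control libraries. Leaving out single libraries moved the 3 differences between -0.06 and 0.11, and PD-L1low against control changed sign in 5 and PD-L1high against PD-L1low in 3 alternatives. The high value of control replicate 4 went with the shortest effective length that RSEM gave H2-K1, 766 bases against up to 1001 in other libraries. By expected counts, not divided by length, that library's ratio was 2.03 and the group means were 2.02 ± 0.0849, 2.09 ± 0.135 and 2.08 ± 0.0397 (SD, n = 4, 3 and 4).

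Classical heavy chains made up most class I heavy chain transcripts in all groups. H2-K1 and H2-D1 together took 75.8% ± 3.07 of the heavy chain TPM in control, 77.0% ± 2.18 in PD-L1low and 76.9% ± 1.24 in PD-L1high cells (SD, n = 4, 3 and 4). H2-K1 alone took 60.9%, 62.1% and 62.1%, and H2-D1 14.9%, 15.0% and 14.8%. The differences between groups were smaller than the SD of the control libraries. The shares are of the summed TPM of 25 class I heavy chain genes and depend on the division by effective length. In control libraries the mean ratio of H2-K1 to H2-D1 was 4.12 by TPM and 2.02 by expected counts.

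Nonclassical heavy chains, which also pair with β2-microglobulin, were read next. Of 16 listed genes 9 were tested, 5 were called higher in PD-L1high than in control cells and the same number in PD-L1high than in PD-L1low cells, and none was called in PD-L1low against control cells, where 3 had an unadjusted p under 0.05 with edgeR. The median log2 fold change of the 9 was 1.51, 1.27 and 0.24 in that order, beside medians of -0.02, 0.00 and 0.00 over all tested genes. Of all tested genes 0.941%, 0.64% and 0.0615% were called higher in that order. H2-T23, which encodes the Qa-1 ligand of NKG2 receptors, averaged 23.8 ± 3.11, 23.5 ± 3.84 and 110.4 ± 14.4 CPM in control, PD-L1low and PD-L1high cells, a log2 fold change of 2.21 against control (adjusted p = 1.69e-08). H2-Q4 was higher by 2.33 (adjusted p = 7.99e-08), H2-Q6 by 4.39 (adjusted p = 5.86e-07) and H2-T22 by 1.51 (adjusted p = 1.12e-05). H2-Q6 averaged 1.58 CPM in control cells, and the H2-Q genes are near copies of each other, so that the division of reads among them is uncertain. DESeq2 called 2 nonclassical genes in PD-L1low against control, and leaving out control replicate 1 gave 2 as well (H2-Q4 and H2-Q6).

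Of 5 other proteins known to need β2-microglobulin, 2 were expressed highly enough to be tested, and neither was called in any comparison. Hfe, which regulates iron uptake, averaged 36.7, 33.7 and 26.9 CPM in control, PD-L1low and PD-L1high cells (log2 fold change against control -0.40 in PD-L1high cells, adjusted p = 0.536). Mr1, which presents vitamin B metabolites, averaged 6.87, 6.38 and 7.77 CPM. Cd1d1 was at or near 0 and Cd1d2 and Fcgrt were listed at 0. With edgeR the unadjusted p was 0.0234 for Hfe in PD-L1high against control and above 0.05 in the other tests of both genes, and DESeq2 called neither gene.

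Most genes that supply and load peptides were higher in PD-L1high cells. Of 13 listed genes, all tested, 10 were called higher in PD-L1high than in control cells and 10 in PD-L1high than in PD-L1low cells, with medians of 1.48 and 1.25 on the log2 scale. Over all 16252 tested genes, 0.941% and 0.64% were called higher in these 2 comparisons, with medians of -0.0195 and -0.0042. Tap1, a subunit of the peptide transporter, averaged 11.6 ± 3.33, 31.99 ± 5.90 and 122 ± 17.2 CPM in control, PD-L1low and PD-L1high cells. It was the 1 listed gene called in PD-L1low against control (log2 fold change 1.56, adjusted p = 0.000421), where 0.0615% of tested genes were called higher. Tap1 was higher by 3.41 in PD-L1high than in control cells (adjusted p = 3.63e-09). In PD-L1low against control 6 of the 13 had an unadjusted edgeR p under 0.05, and DESeq2 and the fit with no filter on low counts each called 3. The immunoproteasome subunits Psmb8, Psmb9 and Psmb10 were higher in PD-L1high than in control cells by 2.81, 2.93 and 2.24. The 3 genes not called, Calr, Canx and Pdia3, named after their values were seen, encode general folding factors of the endoplasmic reticulum and averaged 430.2 to 460, 969 to 1058 and 883 to 992 CPM over the groups. In PD-L1high against PD-L1low the count was 9 without PD-L1high replicate 3, without replicate 2 or without replicate 3.

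Of 13 transcriptional regulators of class I, all tested, 2 were called higher in PD-L1high than in control cells (Irf1 and Nlrc5), 0 in PD-L1low than in control cells and 1 in PD-L1high than in PD-L1low cells (Irf1). The medians were 0.15, 0.07 and 0.16 on the log2 scale. Over all tested genes, 0.941%, 0.0615% and 0.64% were called higher in the same order. In PD-L1low against control 2 of the 13 had an unadjusted edgeR p under 0.05 (Nlrc5 and Irf1), and DESeq2 called 2, as did the fits without control replicate 1 or without replicate 1. Irf1 was higher by 1.80 in PD-L1high than in control cells (adjusted p = 7.19e-07) and by 1.17 than in PD-L1low cells (adjusted p = 0.000446). Nlrc5 averaged 3.28 ± 3.47, 17.8 ± 4.23 and 41.5 ± 5.30 CPM and was higher by 3.99 in PD-L1high than in control cells (adjusted p = 0.000472). In PD-L1low against control its log2 fold change was 3.02 with an adjusted p of 0.0505, between 7.62e-35 and 0.996 over 23 alternatives. The subunits of RFX and NF-Y, with Creb1, Atf1, Rela and Nfkb1, 10 genes of which the products of several bind the kinds of element shown above, were not called by edgeR or DESeq2 in any comparison. These 10 were picked as factors not induced by IFNγ, leaving out Irf1, Irf2 and Nlrc5, so that the absence of calls follows in part from the choice. Irf1, which was called, encodes an IRF factor, the kind that binds the interferon-response sequence shown. With edgeR, 1, 0 and 1 of the 10 had an unadjusted p under 0.05 in PD-L1high against control, PD-L1low against control and PD-L1high against PD-L1low.

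**Figure D4:**
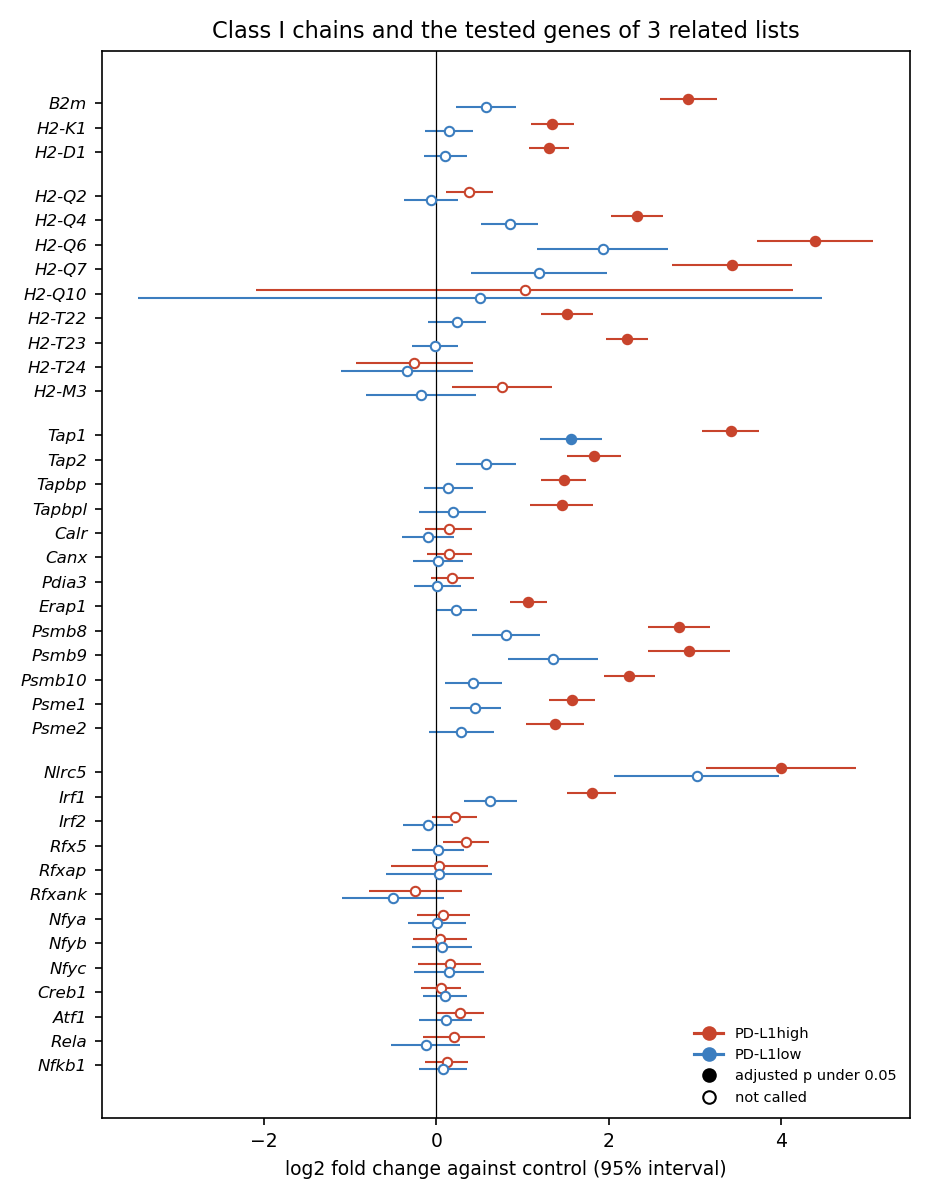
Log2 fold change against control with its 95% interval (horizontal axis) in PD-L1high and PD-L1low cells for the 3 chains and for the tested genes of 3 lists, separated by gaps: nonclassical heavy chains, peptide supply and loading, and transcriptional regulators. Filled points have an adjusted p under 0.05. B2m, H2-K1 and H2-D1 are filled in PD-L1high and open in PD-L1low cells, and in PD-L1low cells only Tap1 is filled among the genes drawn.

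Over the 11 libraries the log2 CPM of H2-K1 was most like that of H2-D1 (Pearson r = 0.996), and each was the first gene by likeness to the other. B2m ranked 29 for H2-K1 (r = 0.939) and 33 for H2-D1 (r = 0.938). The genes outside the 3 most like H2-K1 were Erap1 (r = 0.979), Tapbp (0.975), 9930111J21Rik1, Tapbpl and Parp12. For H2-D1 they were Tapbp (0.979), Erap1, H2-DMb1, 9930111J21Rik1 and Tapbpl. Those most like B2m were Ube2l6 (r = 0.985), Il18bp (0.982), Serping1 (0.981), H2-Q4 and Parp12. Parp12 was thus on the lists of H2-K1 and B2m, and Erap1, Tapbp, 9930111J21Rik1 and Tapbpl were on those of both heavy chains. These correlations are descriptions over libraries of 3 groups that share the differences given above.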

How the data were processed

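Gene-level files of 11 RNA-seq libraries were used. The methods name stranded, random-primed NuGEN Ovation Solo libraries. Alignment was by STAR (2.5.2b) on GRCm38.p6 using GenCode M23, and RSEM (version not given in the sources used here) estimated the counts. The authors deposited expected counts per gene, not normalized, and TPM values, which RSEM scales within a library by effective length (deposited as well). For their tests the authors ran DESeq2 (1.32.0), including a term for batch. Whether molecular identifiers were used is not given in the sources used here.

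Groups and replicate numbers were taken from the labels. Replicate 1 has no PD-L1low library, and the methods state that each n is an independent biological sample. Expected counts were rounded, which changed a total by at most 0.000388%. Genes were kept by filterByExpr with a count minimum of 10 (16252 of 55487), normalized by TMM and tested with edgeR 4.0.16 (robust quasi-likelihood, group and replicate number as terms, all 11 libraries in 1 fit, R 4.3.3), with Benjamini-Hochberg adjustment over all tested genes and a threshold of 0.05. The replicate number stood for the batch term, which the methods do not define. Deviations of libraries with the same number correlated between -0.329 and 0.408, and those with different numbers between -0.352 and 0.334, so that the numbers were not shown to pair the libraries. No 2 libraries of a group agreed within sampling noise. Depth was 10422018 to 15810769 expected counts.

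Ratios of TPM were compared by exact two-sided permutation tests on the log2 scale, adjusted over 6 tests (Python 3.11.15, scipy 1.17.1). Positions are from GENCODE M21 (GRCm38), promoter sequences from RefSeq. Scripts were tested on simulated data. Besides the 3 genes, the text names up to 4 genes per list with the smallest p in PD-L1high against control, any called in PD-L1low against control, Cd274, and the 5 genes most like each member; others are marked in the text. The 3 genes and the lists were chosen with earlier results of these data known. Alternatives were limma-voom (limma 3.58.1), DESeq2 1.42.0, other normalizations, filters and models, summed heavy chain counts, and leaving out libraries. Some genes of the lists are not reported here.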

Additional observations from a re-analysis of the deposited data

Results flagged for a closer look

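The ratio of H2-K1 to H2-D1 TPM in control replicate 4 (4.79) lay far from the other control libraries, which were between 3.89 and 3.91. Its gap took up 0.975 of the group's range, against a critical value of 0.829 in Dixon's test for 4 samples, which chance exceeds in about 1 in 20 groups, and 26 groups of 4 were examined here. The same library was not set apart in the ratio of expected counts (2.03).

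The change against control differed between PD-L1high and PD-L1low cells for all 3 genes. Tested as PD-L1high against PD-L1low in edgeR, this difference was 1.20 for H2-K1 (adjusted p = 0.000139), 1.20 for H2-D1 (adjusted p = 5.48e-05) and 2.35 for B2m (adjusted p = 1.58e-06) on the log2 scale, and the value was higher in PD-L1high cells in all 3 replicates that hold both populations.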

How the results depend on the processing

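In PD-L1high against control and against PD-L1low, H2-K1 and H2-D1 kept their direction and call in each of 24 alternatives and B2m in each of 23. The log2 fold changes against control ranged over 1.26 to 1.46 for H2-K1, 1.23 to 1.39 for H2-D1 and 2.75 to 3.07 for B2m. In PD-L1low against control no alternative called a heavy chain, and B2m was called with no filter on low counts (0.59, adjusted p = 0.0160), the cause of which was not tested.

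Without the replicate block, the log2 fold changes of H2-K1, H2-D1 and B2m were 1.34, 1.30 and 2.89 against control in PD-L1high, 0.19, 0.15 and 0.41 in PD-L1low and 1.15, 1.15 and 2.48 for PD-L1high against PD-L1low, no call of these 3 genes changed, and 127, 12 and 88 genes were called. With the replicate block the ratio of heavy chains to B2m differed by -1.59 in PD-L1high against control with an exact sign-flip p = 0.125, the smallest that 4 pairs allow. The block gave -0.0049 for H2-K1 to H2-D1 in PD-L1low against control, a change of sign.

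In PD-L1high against control 161 genes were called, and 328 with no filter, 249 with DESeq2, 249 with limma-voom and 93 to 269 with single libraries or replicate numbers left out (269 without control replicate 2, 93 without replicate 3). For PD-L1low against control 13 genes were called, and 91, 47 and 23 in the same order, 33 in a fit of only those groups, and 8 to 43 with libraries left out (43 without control replicate 1, 41 without PD-L1high replicate 1, 8 without PD-L1low replicate 2). For PD-L1high against PD-L1low 119 were called, and 354, 202 and 180, and 64 to 143 with libraries left out. The cause was not tested. Counts of list genes called in PD-L1low against control moved between 0 and 2 (nonclassical heavy chains), 1 and 3 (peptide supply) and 0 and 2 (regulators). Those of regulators in PD-L1high against PD-L1low moved between 1 and 2. The count was 2, with Nlrc5 added, without control replicate 1, PD-L1high replicate 1 or replicate 1. It was also 2 with no filter on low counts, with limma-voom and in a fit of only those groups.

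Leaving out 1 library, the ratio of heavy chains to B2m in PD-L1high against control ran from -1.89 to -1.45 with an exact permutation p = 0.0571, the smallest for 4 against 3. In PD-L1low against control it ran from -0.54 to -0.10. That of H2-K1 to H2-D1 ran from 0.010 to 0.11 in PD-L1high against control and from -0.040 to 0.096 in PD-L1low against control, where it was -0.040 without PD-L1low replicate 4, -0.0049 without control replicate 1, -0.0023 without control replicate 2 and -0.0052 without control replicate 3. In PD-L1high against PD-L1low it ran from -0.059 to 0.077, with -0.0039 without PD-L1high replicate 4, -0.059 without PD-L1low replicate 2, and -0.00085 from expected counts. Depth limits the low H2-Q and leukocyte genes more than the 3 chains, which had at least 1187 counts in each library.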
